A study of Mus musculus with 36 samples.

Results

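Eosinophils of the small intestine were set against eosinophils of the skin, over every gene of the deposited tissue table. The comparison holds 4 small intestine libraries, numbered 1 to 4, and 3 skin libraries, numbered 1, 2 and 4, which are 7 of the 36 samples of the series. Both groups are total eosinophils sorted by flow cytometry from wild-type C57BL/6 mice aged 8 to 12 weeks, untreated, both sexes together, at steady state. The labels do not give the number of animals behind a library or say that replicates are separate animals, and the p-values below reflect variation among libraries that could in part be technical. Libraries were full-length Smart-seq2 cDNA read as pairs of 150 bases, and values are TPM, a level per unit of transcript length relative to all transcripts of the library. Another 17 libraries of the same strain, age and genotype, from bone marrow, blood, spleen, lung and colon, helped to estimate the spread and give the levels elsewhere.

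Eosinophils are granulocytes that mature in the bone marrow under interleukin 5 and pass through the blood into tissues. Their granules carry major basic protein, eosinophil peroxidase and ribonucleases, and their surface carries Siglec-F and the eotaxin receptor CCR3. The lamina propria of the small intestine keeps a large resident population at steady state, whereas resting skin holds few. Gut eosinophils are known for signalling through the aryl hydrocarbon receptor, a transcription factor that responds to compounds from diet and microbes.

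Siglecf, the defining marker, was present in both tissues. Siglecf was at 218, 221, 293 and 347 TPM in small intestine libraries, against 251, 219 and 161 TPM in skin libraries, and did not pass the test (log2 change 0.35, limma adjusted p = 0.153). Genes at 1 TPM or more numbered 8818 ± 79.2 in small intestine and 8717 ± 61.9 in skin libraries (SD), and an exact two-sided permutation test over 35 regroupings gave p = 0.1429 for the difference of 102, where the smallest possible p is 0.0286. The 50 most abundant genes took 28.85 ± 1.08% of the TPM in small intestine and 30.37 ± 1.21% in skin libraries (exact permutation p = 0.1429, and 0.1429 for both after Benjamini-Hochberg adjustment over 2 measures). Pearson correlations of log2(TPM + 1) were 0.939 to 0.95 within small intestine, 0.92 to 0.949 within skin, and 0.81 to 0.844 between the tissues. Sequencing depth is unknown, since TPM keep none of it.

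Markers of other cells also differed, and their part in the results was not tested. Of 10 muscle and adipocyte markers 2 were tested, Myl1 and Acta1, with summed levels of 0 to 0.35 TPM in small intestine and 19.79 to 319.6 TPM in skin libraries, highest in skin library 1. The 4 tested keratinocyte markers (of 19) summed to 5.28 to 13.97 TPM in small intestine and 42.52 to 155 TPM in skin, and the defining keratins Krt5 and Krt14 were not among the genes tested. The 6 tested gut epithelial markers (of 25) summed to 150.3 to 309.2 TPM in small intestine and 7.06 to 10.43 TPM in skin, Olfm4 and Cdh17 being most of it in small intestine. Epcam, a defining epithelial marker, was at 0 to 3.92 TPM in small intestine and 0 to 1.32 TPM in skin. Jchain, a plasma cell gene, stood at 909 TPM in small intestine library 3, at 8.33 to 27.2 TPM in the other small intestine libraries and at 0 to 2.76 TPM in skin; its call was lost without small intestine library 3 (2.72, limma adjusted p = 0.076) or skin library 2 (3.57, 0.077), and in the fit to the 2 tissues alone (4.19, 0.065). The 12 tested erythroid and platelet markers (of 14), mostly haemoglobins where the sum was high, summed to 98.08 to 17820 TPM in small intestine and 86.71 to 1537 TPM in skin. The 17 tested neutrophil markers (of 20) had overlapping sums of 8499 to 11200 TPM in small intestine and 4732 to 12710 TPM in skin, but 5 of them rose (29.4%), G0s2 (6.06) among them, and Padi4 fell by 2.33. Macrophage markers (9 tested of 21) summed to 1012 to 1299 TPM in small intestine and 1223 to 1955 TPM in skin, and mast cell and basophil markers (8 of 17) to 318.5 to 413.1 TPM in small intestine and 728.3 to 838.4 TPM in skin, mostly Hdc and Il4. Cpa3, a defining mast cell gene, was at 0 in every small intestine library and at 0, 0 and 21.02 TPM in skin. The fall of Hdc, which encodes histidine decarboxylase (-0.83), was not called without skin library 4 (-0.6, limma adjusted p = 0.1). The 3 tested B and plasma cell markers (of 21) summed to 75.24 to 1005 TPM in small intestine and 0 to 2.99 TPM in skin. Stromal markers (6 of 17) summed to 806.7 to 875.8 TPM in small intestine and 118.9 to 231.5 TPM in skin, mostly Gsn, which leukocytes also express. Endothelial markers (2 of 13, Pecam1 and Esam) summed to 140.9 to 175.9 TPM in small intestine and 6.59 to 25.83 TPM in skin. Markers of natural killer cells and innate lymphoid cells (3 of 16) summed to 0 to 2.17 TPM in small intestine and 16.86 to 20.22 TPM in skin, and those of dendritic cells (7 of 15) to 221.5 to 557.3 TPM in small intestine and 306.3 to 417 TPM in skin. None of the 16 T cell markers and none of the 11 markers of glia, neurons and melanocytes was among the genes tested.

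Small intestine and skin eosinophils differed in 3161 of 9806 genes tested (32.2%) with limma on log2(TPM + 1) at a Benjamini-Hochberg adjusted p under 0.05. In small intestine, 1570 genes (16.0% of those tested) were higher and 1591 (16.2%) were lower, and the median change of all genes was -0.02 on the log2 scale. All 4 small intestine libraries lay above all 3 skin libraries in 16.9% of the tested genes and below them in 17.3%. A change of at least 2 on the log2 scale was seen in 445 higher and 335 lower genes, and of at least 4 in 69 and 40. These shares are the background against which each gene group is read, and no group was tested as a group. In a bulk sample, fewer cells of a kind and less RNA per cell cannot be told apart. The change on the log2(TPM + 1) scale understates that of low genes.

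**Figure D1:**
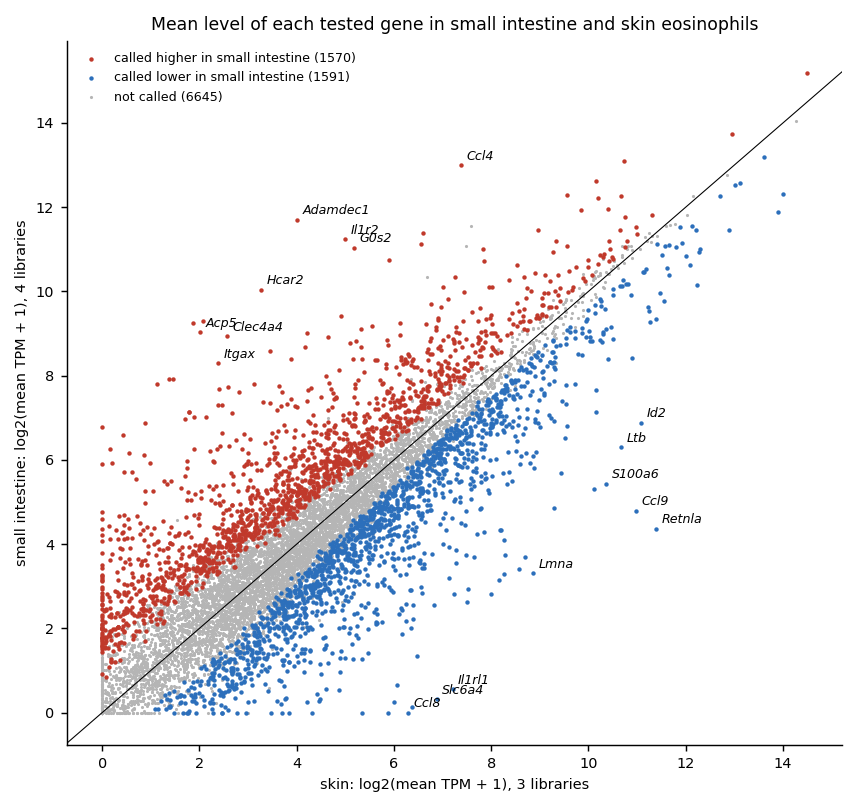
Each point is 1 of the 9806 tested genes, with its mean level in 4 small intestine libraries on the y axis and in 3 skin libraries on the x axis, both as log2(mean TPM + 1); colours mark the 1570 genes called higher and the 1591 called lower in small intestine. Ccl4, Adamdec1 and Il1r2 lie far above the diagonal at high levels, and Retnla, Ccl9 and Lmna far below it.

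The 20 largest rises, ranked among called genes of at least 10 TPM whose groups did not overlap, had log2 changes of 5.6 to 8.01 and limma adjusted p of at most 1.72e-07. Adamdec1, a metalloprotease-like protein of the gut, led them. It was at 3357, 3182, 2988 and 3795 TPM in small intestine libraries and at 4.45, 12.3 and 28.3 TPM in skin libraries, a log2 change of 8.01 ± 0.50 (SE; limma adjusted p = 2.34e-12). Its mean in colon was 904 TPM, and in the other tissues it was 16.9 to 139 TPM. Acp5, the tartrate-resistant acid phosphatase, was at 440 to 637 TPM in small intestine and at 1.92 to 5.02 TPM in skin (7.08 ± 0.36 on the log2 scale). Hcar2, a receptor of butyrate and niacin, was at 1265, 1305, 891 and 758 TPM in small intestine, against 4.9, 16.4 and 4.68 TPM in skin (6.94 ± 0.45). No library of one tissue came near the other in these 3 genes. Dpep2, a dipeptidase that converts leukotriene D4, was at 204 to 240 TPM in small intestine and at 0 to 2.88 TPM in skin, and below 1 TPM in each of the 5 other tissue means. Gngt2 (7.59) and Abi3 (5.66) are neighbours whose gene models overlap on opposite strands of chromosome 11, and Smart-seq2 reads do not mark the strand, so reads of the overlap cannot be told apart. The models of Acp5, Cd22, G0s2 and Il1r2 also overlap other genes, so reads of those overlaps may not be told apart. Il1r2 (6.27), Ggta1 (6.55), F2rl3 (6.24), Cd22 (6.09), G0s2 (6.06), Itgax (6.01), Olfm4 (5.92), Dio2 (5.71) and Osgin1 (5.60) were also in the group. Sirpb1a and Cdh17 were listed at 0 in all 3 skin libraries. Sirpb1a was at 95.4 to 129 TPM in small intestine; it has near-identical copies, and Sirpb1b was at 0 in all 7 libraries. Cdh17, a cadherin of intestinal epithelium, was at 42.9 to 79.1 TPM in small intestine and at most 0.41 TPM in the other tissue means.

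The 20 largest falls had log2 changes of 4.85 to 8.3 in size, with limma adjusted p of at most 2.55e-05. Retnla, a secreted resistin-like protein induced by interleukins 4 and 13, was at 60.1, 4.65, 0 and 13.9 TPM in small intestine libraries and at 3069, 2552 and 2416 TPM in skin libraries. It fell by 8.30 on the log2 scale (SE 1.06, limma adjusted p = 8.09e-07), and colon, at 864 TPM, was the other tissue with a high mean. Il1rl1, the interleukin 33 receptor, was at 0.26, 0.29, 0.07 and 1.26 TPM in small intestine and at 149, 153 and 138 TPM in skin (log2 change -6.71 ± 0.31, SE). The skin level of Il1rl1 lay above all 5 other tissue means (9.73 to 45.7 TPM), and the small intestine level below all of them. Slc6a4, the serotonin transporter, was at 0, 0, 0 and 0.99 TPM in small intestine and at 114.5, 141 and 94.0 TPM in skin (-6.61 ± 0.46), and at most 2.65 TPM in any other tissue mean. For Retnla, Il1rl1 and Slc6a4 all skin libraries were high and the groups did not come close, though groups without overlap were part of the rule that chose them. Lmna, the nuclear lamins A and C, was at 7.84 to 10.2 TPM in small intestine and at 353 to 628 TPM in skin. Its mean in colon was 428 TPM, near that of skin (466 ± 144 TPM, SD). Fgfr1 (-5.28), Inpp5j (-5.27), Cfp (-5.22), Ahnak (-5.17), Pim2 (-5.13), S100a6 (-5.11), Selenom (-4.90), Cd55 (-4.85) and the receptor Cd300ld3 (-5.74) were also in the group. The gene models of Fgfr1, Cd55 and Acta1 overlap other genes, so reads of those overlaps may not be told apart. Acta1, Myl1 and Mylpf, structural genes of skeletal muscle, had 0 to 1.31 TPM in small intestine libraries. In skin libraries 1, 2 and 4 Acta1 had 199.6, 34.4 and 11.2 TPM, Myl1 120, 43.7 and 8.59 TPM, and Mylpf 117, 69.1 and 10.8 TPM.

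**Figure D2:**
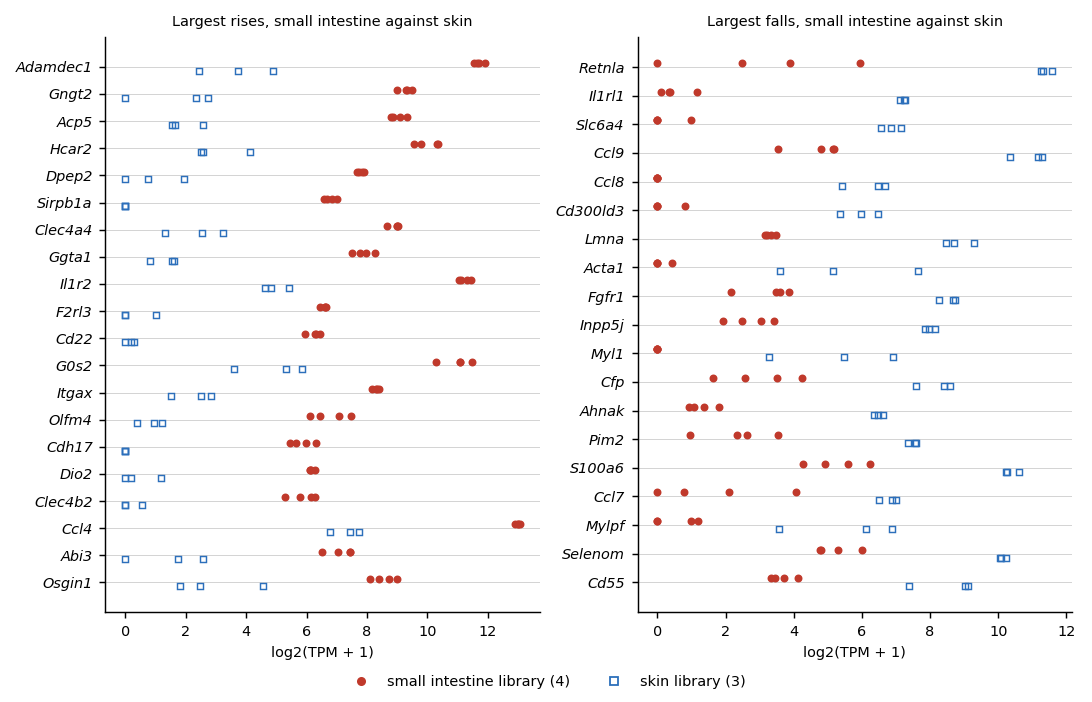
Values of every small intestine library (filled circles, 4) and skin library (open squares, 3) for the 20 genes with the largest rise (left) and 19 of the 20 with the largest fall (right), as log2(TPM + 1) on the x axis. The groups do not overlap in any gene, which is part of the rule that chose them; Retnla shows the widest spread among small intestine libraries of the falls, from 0 to 60.1 TPM.

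Both tissues were also set beside the other 5 tissue means. Of the 1570 genes higher in small intestine, 921 (58.7%) had a small intestine mean above all 5 other tissue means and 492 (31.3%) had a skin mean below all 5, with 173 doing both. Of the 1591 lower genes, 674 (42.4%) had a small intestine mean below all 5 and 928 (58.3%) a skin mean above all 5, with 267 doing both. Over all tested genes, the small intestine mean was above all 5 in 23.4% and below in 13.1%, and the skin mean was above in 25.4% and below in 11.9%. Among the 20 largest rises the small intestine mean was above all 5 in 18, and among the 20 largest falls the skin mean was above all 5 in 20. Genes were called and ranked on the same small intestine and skin values. A share above that of all tested genes is therefore in part built in by the choice of genes. With median-ratio scaling, 740 of 1408 lower genes had small intestine below all 5 and 621 had skin above all 5, so which of the 2 shares is larger turned with the scaling. All 20 largest rises and 11 of the 20 largest falls also had values in the separate table of reporter-sorted small intestine cells. That table holds 8001 genes from small intestine cells alone, and the falls were chosen for a low level in small intestine. These counts therefore follow from how the genes were chosen and are no separate support.

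Aryl hydrocarbon receptor genes were mostly higher in small intestine. Of 11 tested members 8 rose (72.7%, against 16.0% of all tested genes) and 1 fell, with a median change of 2.16 on the log2 scale. The list has 15 genes, and Cyp1a1, Aldh3a1, Ugt1a6a and Il22 were not among the genes tested. The receptor itself, Ahr, was at 217, 220.3, 191 and 189.9 TPM in small intestine libraries and at 18.4, 30.4 and 26.1 TPM in skin libraries (log2 change 3.01 ± 0.18, limma adjusted p = 9.4e-13). Its targets Cyp1b1, a cytochrome P450, and Ahrr, the repressor that closes the loop, had 27.6 to 72.2 TPM and 12.2 to 21.3 TPM in small intestine and 0 to 0.84 TPM and 0 to 0.35 TPM in skin. Their log2 changes were 5.20 ± 0.35 and 3.93 ± 0.33. Tiparp, another direct target, was at 245 to 395 TPM in small intestine and at 32.2 to 98.2 TPM in skin (2.58 ± 0.33). Nqo1, a quinone reductase that is also a target of Nfe2l2, changed by 4.46, but its skin mean of 0.833 TPM was below all 5 other tissue means while its small intestine mean was within their range. The member that fell was Hsp90ab1 (-1.86), a chaperone of the resting receptor, and Arnt, the partner of the receptor, did not pass (-0.15, limma adjusted p = 0.774).

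Sterol synthesis genes were mostly higher in small intestine, from early to late steps of the pathway. Of 31 tested members 21 rose (67.7%) and 1 fell, with a median of 2.13 on the log2 scale. Insig1, the sterol-sensing anchor that is itself induced when sterols are low, was at 138, 86.6, 109.8 and 162 TPM in small intestine libraries and at 1.91, 3.89 and 0.96 TPM in skin libraries (5.33 ± 0.43, limma adjusted p = 3.56e-10). In order along the pathway, Hmgcs1 (3.88), Pmvk (3.24), Idi1 (4.82), Fdps (4.77), Fdft1 (4.01), Sqle (4.14), Cyp51 (4.31), Msmo1 (3.27), Nsdhl (2.68) and Sc5d (4.53) rose. Not every step passed the test, since the enzyme genes Acat2 (1.04), Mvd (1.1) and Ebp (0.11) did not. Srebf2, the transcription factor of the pathway, was at 216 to 231 TPM in small intestine and at 30.5 to 39.6 TPM in skin (2.62 ± 0.19). Srebf1, its relative in fatty acid synthesis (-0.41, limma adjusted p = 0.596), did not pass, and Scap, which escorts both factors, fell by 0.76, a call lost without skin library 4 (adjusted p = 0.057) and in the fit to the 2 tissues alone (0.065). For Insig1, Idi1, Cyp51 and Hmgcs1 the small intestine mean was above all 5 other tissue means. Abca1, the cholesterol exporter, was at 1 to 1.98 TPM in small intestine and at 25.9 to 38.7 TPM in skin (-3.68 ± 0.36).

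The stretches before the start of 5 called genes of these lists are shown because they hold a motif known from the 2 regulators. They come from RefSeq on build GRCm38.p6 (the same sequence as mm10) and read 5′ to 3′ along the gene, covering 250 bases up to the gene start. Capitals mark a match to TNGCGTG, the core letters bound by the aryl hydrocarbon receptor, in Ahrr. In the other genes they mark ACNCCAC, core letters of the sterol response element, or its reverse complement where the match lies on the other strand. Ahrr lies at chr13:74292332-74292581 (minus strand), Insig1 at chr5:28071162-28071411 (plus), Srebf2 at chr15:82147019-82147268 (plus), Hmgcs1 at chr13:119690101-119690350 (plus) and Cyp51 at chr5:4104698-4104947 (minus).
Ahrr: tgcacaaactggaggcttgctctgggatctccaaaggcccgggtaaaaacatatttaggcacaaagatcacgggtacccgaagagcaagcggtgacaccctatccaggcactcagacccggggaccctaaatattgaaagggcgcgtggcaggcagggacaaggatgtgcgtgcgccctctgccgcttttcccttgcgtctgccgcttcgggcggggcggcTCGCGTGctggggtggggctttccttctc
Insig1: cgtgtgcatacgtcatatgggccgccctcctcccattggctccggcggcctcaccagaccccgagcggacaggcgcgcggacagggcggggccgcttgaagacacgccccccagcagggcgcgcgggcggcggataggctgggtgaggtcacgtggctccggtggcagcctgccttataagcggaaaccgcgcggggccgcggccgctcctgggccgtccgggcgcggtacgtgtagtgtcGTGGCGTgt
Srebf2: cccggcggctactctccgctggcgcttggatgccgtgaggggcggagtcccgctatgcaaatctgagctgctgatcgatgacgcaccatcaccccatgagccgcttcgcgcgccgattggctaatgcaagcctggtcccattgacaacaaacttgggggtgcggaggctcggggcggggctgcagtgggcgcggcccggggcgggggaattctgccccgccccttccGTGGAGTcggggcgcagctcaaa
Hmgcs1: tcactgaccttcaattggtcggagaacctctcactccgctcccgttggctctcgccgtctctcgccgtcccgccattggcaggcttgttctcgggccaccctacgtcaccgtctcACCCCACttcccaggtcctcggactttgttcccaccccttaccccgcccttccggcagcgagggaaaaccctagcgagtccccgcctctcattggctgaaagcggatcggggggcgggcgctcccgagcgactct
Cyp51: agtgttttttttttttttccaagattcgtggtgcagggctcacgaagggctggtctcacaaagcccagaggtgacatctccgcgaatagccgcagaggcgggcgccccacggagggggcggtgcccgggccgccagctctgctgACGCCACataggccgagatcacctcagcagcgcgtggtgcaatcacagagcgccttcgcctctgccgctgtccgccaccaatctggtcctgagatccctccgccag

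Both strands were searched. Among the 11 aryl hydrocarbon receptor genes 7 had a sequence, and 1 of these, Ahrr, held TNGCGTG, which 4.1% of all 32851 promoters of the table hold. Among the 31 sterol genes 23 had a sequence, 31 promoters in all, of which 7 (22.6%), each of another gene, held ACNCCAC, which 12.7% of all promoters hold. Of the 15 genes that also rose, 5 held it, the 4 shown and Nsdhl. A match is a description of the letters and not of binding.

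**Figure D3:**
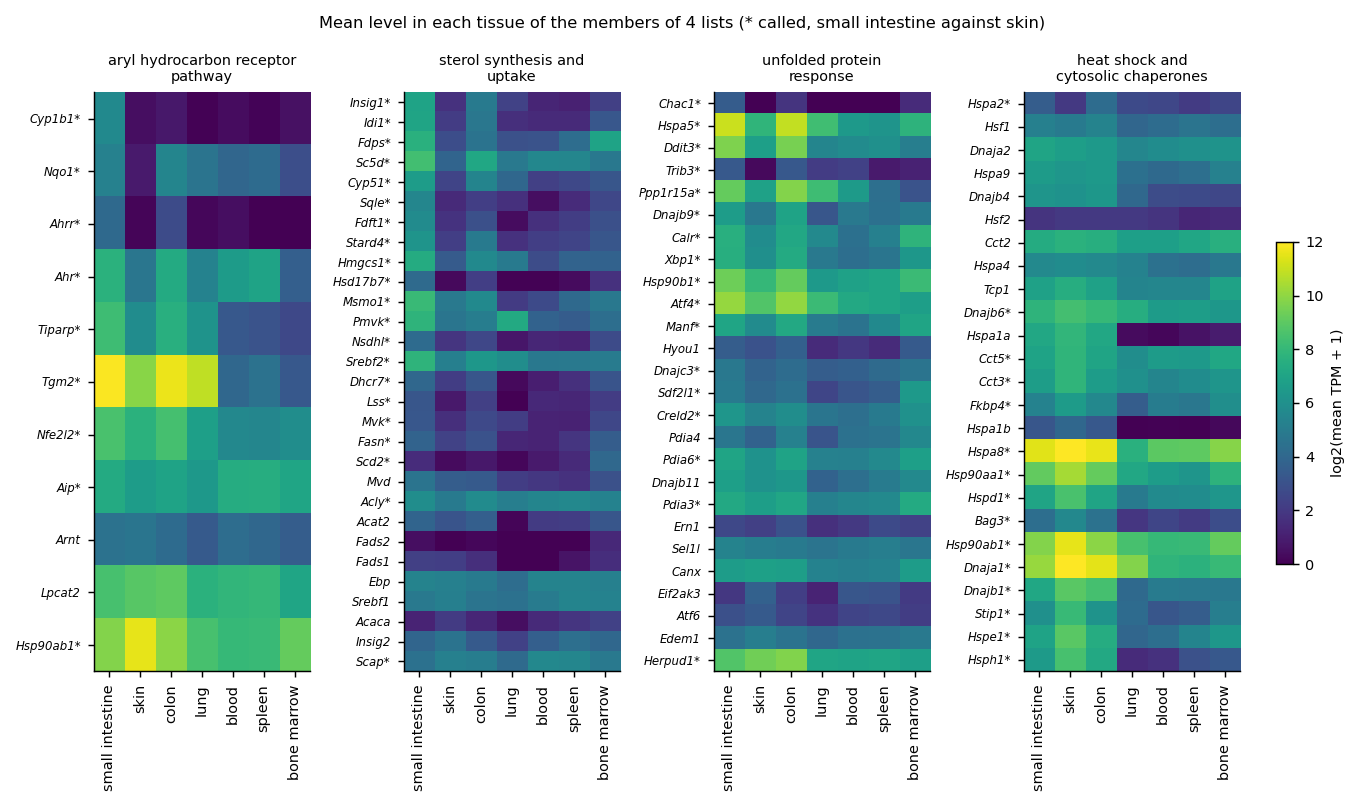
Mean level in each of the 7 tissues, as log2(mean TPM + 1) by colour, of the tested members of 4 lists, except 2 sterol genes that are not shown, with small intestine and skin in the first 2 columns and an asterisk on genes that passed the test between them. Of the 29 sterol genes drawn 22 have their highest mean in small intestine, and of the 25 chaperones 19 have it in skin.

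Stress genes of the endoplasmic reticulum were mostly higher in small intestine, and heat shock chaperones mostly lower. Of 26 tested genes of the unfolded protein response, the stress pathway of the endoplasmic reticulum, 16 rose (61.5%) and 1 fell, with a median of 1.01. Hspa5, its main chaperone BiP, was at 1900.4, 2430.4, 1799.7 and 2149 TPM in small intestine libraries and at 253, 259.6 and 169.9 TPM in skin libraries (3.20 ± 0.17, limma adjusted p = 1.38e-13). Ddit3, the stress factor CHOP, rose by 2.97 and Atf4 by 1.29, and Chac1 was at 6.33 to 15.5 TPM in small intestine and listed at 0 in all skin libraries. The sensors Ern1, Eif2ak3 and Atf6 did not pass (limma adjusted p = 0.645, 0.648 and 0.31). Of 25 cytosolic and mitochondrial chaperones of the heat shock list 14 fell (56.0%, against 16.2% of all tested genes) and 1 rose, with a median of -1.14. Their summed level ranged from 4544 to 11240 TPM in small intestine libraries and from 14010 to 24140 TPM in skin libraries. The part of tissue dissociation in these levels was not tested. Hsph1 fell by 2.52, Hspe1 by 2.16, Stip1 by 2.1, Dnajb1 by 2.06 and Hsp90ab1 by 1.86. Hspa8, the constitutive Hsc70, was at 4379, 3441, 1524 and 1876 TPM in small intestine and at 9421, 9155 and 4261 TPM in skin (-1.48 ± 0.28), where small intestine library 1 was above skin library 4, and Hsph1 and Dnajb1 overlapped in the same way. Small intestine library 1 was the highest of the 4 for all 5 of Hsph1, Hspe1, Stip1, Dnajb1 and Hsp90ab1. The inducible Hspa1a had 368, 121, 42.4 and 57.5 TPM in small intestine and 236, 403 and 71.2 TPM in skin, and did not pass (-0.88, limma adjusted p = 0.31).

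Neighbouring chemokine genes differed in direction. Of 15 tested CC and CXC chemokines 5 rose (33.3%) and 7 fell (46.7%). In small intestine, Ccl4, also known as MIP-1 beta, was at 8114, 7661, 8254 and 8586 TPM and Ccl3, a ligand of CCR1, at 5211 to 7165 TPM. In skin they were at 213, 172 and 108 TPM and at 479 to 1529.7 TPM, and the log2 changes were 5.68 ± 0.65 and 2.64 ± 0.44. Ccl9, a mouse ligand of CCR1, was at 10.51, 34.3, 35.1 and 26.8 TPM in small intestine and at 2301, 2488 and 1298 TPM in skin (-6.27 ± 0.34). Ccl6, another mouse CCR1 ligand that eosinophils make in quantity, was at 2661 to 4507 TPM in small intestine and at 12182 to 17411 TPM in skin (-2.02 ± 0.14). The CCR2 ligands Ccl2 and Ccl7 were at 0 to 13.5 and 0 to 15.7 TPM in small intestine and at 82.4 to 231 and 90.4 to 128 TPM in skin. Ccl8 was 0 in each small intestine library and had 102, 88.2 and 42.1 TPM in skin. These genes lie between positions 82035571 and 83664683 of chromosome 11 (mm10), a stretch with 11 CC chemokine genes of which 8 were tested, 2 rising and 6 falling. Ccl3 and Ccl4 are the last 2 along it. The cluster was picked out after the values had been seen. Among the CXC chemokines that draw neutrophils, Cxcl2 was at 6469 to 11813 TPM in small intestine and at 1566 to 1780.4 TPM in skin (2.33), and Cxcl3 rose by 3.02, whereas Cxcl1 did not pass (-0.92, limma adjusted p = 0.313) except without skin library 4 (adjusted p = 0.039).

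The interleukin 1 cytokines rose, and so did the antagonist and the decoy receptor that limit them. Il1a was at 1516, 1403, 2234 and 1735 TPM in small intestine libraries and at 74.7, 77 and 24.1 TPM in skin libraries (5.0 ± 0.32, limma adjusted p = 4e-12). Il1b was at 3236 to 5479 TPM in small intestine and at 608 to 1629 TPM in skin (2.11). The receptor antagonist Il1rn was at 3944 to 5706 TPM in small intestine and at 1359.6 to 1924 TPM in skin (1.60), and the decoy receptor Il1r2 at 2215, 2532, 2108 and 2774 TPM in small intestine and at 41.7, 23.6 and 27.4 TPM in skin. Il1r2 stands in a row of receptor genes on chromosome 1 (40074079 to 40551705, mm10; picked out after the values were seen), of which 4 of 6 were tested. Il1rl2 of the same row was below 3 TPM in all 7 libraries and did not pass (0.38, limma adjusted p = 0.571), and Il1rl1 (-6.71) and Il18rap, a chain of the interleukin 18 receptor (-3.03), fell. Over the interleukin 1 list 5 of 12 genes rose (41.7%) and 3 fell, Pycard, the inflammasome adaptor, among the falls (-2.49).

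**Figure D4:**
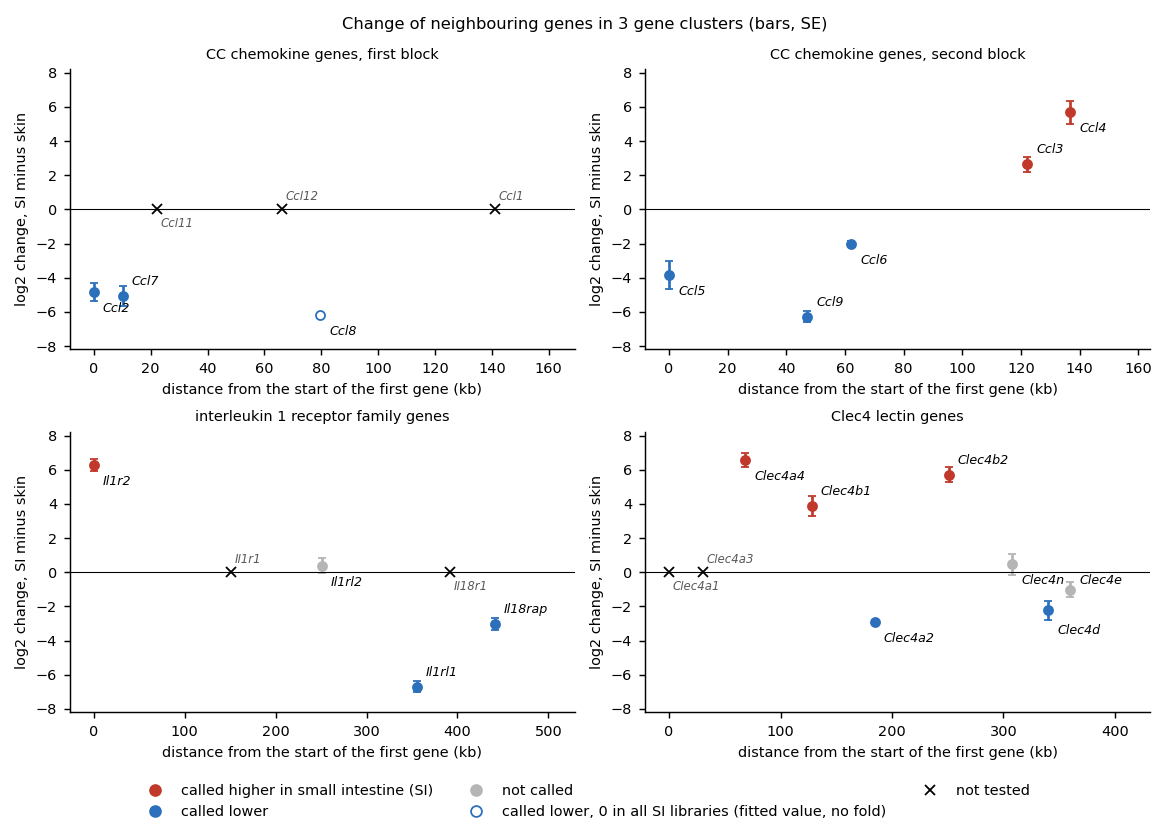
Log2 change of each gene (small intestine minus skin, bars SE) against its distance from the first gene of its cluster in kb, for the CC chemokine genes in 2 blocks, the interleukin 1 receptor family and the Clec4 lectins; crosses are genes not tested. Each cluster holds genes called higher and genes called lower, such as Ccl6 (-2.02) and Ccl3 (2.64); the open circle is the fitted value of Ccl8, which was 0 in every small intestine library and has no fold.

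Lectins and inhibitory surface receptors were divided in the same way, with 13 of 36 higher (36.1%), 14 lower (38.9%) and a median of -0.03. Clec4a4, an inhibitory C-type lectin also known as DCIR2, was at 521, 509, 405 and 513 TPM in small intestine libraries and at 4.8, 8.35 and 1.51 TPM in skin libraries (6.56 ± 0.43). Its relative Clec4a2 (DCIR) was at 37.8 to 48.7 TPM in small intestine and at 314 to 361 TPM in skin (-2.94 ± 0.15). Both lie in the Clec4 cluster of chromosome 6 (122921848 to 123289870, mm10; picked out after the values were seen), where 7 of 9 genes were tested. Clec4b1 (3.86) and Clec4b2 (5.70) also rose there and Clec4d fell by 2.24 (with a pseudocount of 0.1 adjusted p = 0.11), while Clec4n and Clec4e did not pass; Clec4e (-1.02, limma adjusted p = 0.068) passed without skin library 4 (-1.33, adjusted p = 0.037), with a pseudocount of 5 (0.0047), with quantile normalization (0.04) and in the fit to the 2 tissues alone (0.042). Among sialic acid-binding receptors Cd22 was at 61.4 to 87.0 TPM and Cd33 at 168 to 237 TPM in small intestine, and at 0 to 0.23 and 4.06 to 4.79 TPM in skin, whereas Siglecg fell by 3.06. Cd22 is best known from B cells and is 1 of the 3 tested markers of that list; Ms4a1 was not among the genes tested, and Cd79b was at 0.9 to 12.6 TPM in small intestine and 0 in skin. Lair1 rose by 4.93 and Pilra by 3.11, and Clec12a fell by 3.68.

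Among cytokines outside the interleukin 1 family and the chemokines, most transcripts that passed the test were lower in small intestine. Of the 19 tested cytokines and growth factors of this list 8 fell (42.1%) and 2 rose. Il1a, Il1b and Il1rn, given above, rose and are not in this list. Il4 was at 119, 156, 156 and 152 TPM in small intestine libraries and at 432, 422 and 246 TPM in skin libraries (-1.29 ± 0.18, limma adjusted p = 2.26e-06). Il13 was 0 in each small intestine library and had 7.54, 2.66 and 3.3 TPM in skin. Il6 was at 1.88, 2.61, 8.57 and 12.8 TPM in small intestine and at 97.0, 80.2 and 60.6 TPM in skin (-3.69 ± 0.60). Osm, of the interleukin 6 family, fell by 3.18. Il15, a growth factor of lymphocytes, fell by 3.15, and Tnfsf14 (LIGHT) fell by 3.98. Tnf, with 75.7 to 91.1 TPM in small intestine and 337, 299.8 and 63.5 TPM in skin, passed narrowly (-1.21, limma adjusted p = 0.0456), and its groups overlapped. The call of Tnf was lost without any 1 library except skin library 4, with adjusted p of 0.059 to 0.27, and in 5 other settings (0.052 to 0.24). Hbegf (1.56) and Il16 (0.87) were the 2 that rose, and the call of Hbegf was lost without small intestine library 3 or skin library 1 or 4 (adjusted p 0.068 to 0.076). Of the targets of interleukins 4 and 13, 4 of 11 rose (36.4%) and 3 fell (27.3%), with Egr2 (4.13) and Retnla at the ends. Il4ra did not pass (0.08, limma adjusted p = 0.892).

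Of 30 tested cytokine receptors 13 fell (43.3%) and 7 rose (23.3%). The shared chain of the receptors for interleukin 5 and its relatives, Csf2rb, was at 441 to 712 TPM in small intestine and 779.8 to 951 TPM in skin (-0.68). Csf2rb2, a related chain that the interleukin 5 receptor does not use, was at 62.8 to 111 TPM in small intestine and 296 to 429 TPM in skin (-2.11). Il5ra, at 40.2 to 57.2 TPM in small intestine and 81.6 to 98.9 TPM in skin, fell by 0.90. Il17ra fell by 3.0 and Csf1r by 2.29. Tnfrsf1a, the first tumour necrosis factor receptor, was at 239 to 308 TPM in small intestine and at 35.7 to 47.5 TPM in skin (2.69 ± 0.23). Il13ra1 (3.20), Il10ra (2.11) and Tgfbr1 (1.97) also rose, and the call of Il10ra was lost with a pseudocount of 0.1 (adjusted p = 0.075).

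Receptors for metabolites, nucleotides and neuropeptides rose in 16 of 28 cases (57.1%) and fell in 8, with a median of 1.41. Ffar2, a receptor of short-chain fatty acids, was at 418, 311, 290 and 323 TPM in small intestine libraries and at 21.9, 44.9 and 37.0 TPM in skin libraries (3.28 ± 0.25). Nmur1, the receptor of neuromedin U, was at 47.4, 7.55, 24.4 and 26.1 TPM in small intestine and listed at 0 in all skin libraries. The long-chain fatty acid receptor Ffar1 (4.48 to 13.1 TPM in small intestine) was also at 0 in skin. F2rl3, a thrombin receptor, was at 85.9 to 99.97 TPM in small intestine and at 0 to 1.05 TPM in skin, while F2r (-1.72) and F2rl2 (-1.77) of the same family fell, the call of F2r being lost without 6 of the 7 libraries in turn (adjusted p 0.058 to 0.088) and with a pseudocount of 0.1 (0.1). Of the P2Y receptors, which bind nucleotides or their sugars, P2ry13, P2ry6, P2ry2 and P2ry14 rose by 5.09, 3.05, 1.57 and 1.25, and the ATP-gated channel P2rx4 fell by 1.80. The tested adenosine receptors Adora3, Adora2b and Adora2a fell by 2.73, 2.94 and 3.83, and Adora2a was at 0 to 4.31 TPM in small intestine and at 28.3 to 38.0 TPM in skin.

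Chemoattractant receptors were divided, 5 of 15 higher (33.3%) and 7 lower (46.7%). Ccrl2, an atypical receptor that presents chemerin, was at 2445, 2308, 2358 and 1822 TPM in small intestine libraries and at 132, 85.1 and 61.7 TPM in skin libraries (4.63 ± 0.28). Ccr3, the eotaxin receptor, was at 484 to 529 TPM in small intestine and at 845 to 1103 TPM in skin (-0.85 ± 0.15). The sphingosine phosphate receptors S1pr1 and S1pr4, which guide exit from tissue in lymphocytes, fell by 3.84 and 3.68. S1pr1 was at 0 to 0.58 TPM in small intestine and at 8.43 to 29.7 TPM in skin. Complement genes showed 6 falls in 11 (54.5%) and no rise. C3ar1, the receptor of C3a, was at 12.3 to 25.7 TPM in small intestine and at 127 to 254 TPM in skin (-3.47), C5ar1 fell by 1.38, and the membrane inhibitor Cd55 and the plasma activator properdin (Cfp) were among the 20 largest falls.

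Adhesion genes fell in 12 of 31 cases (38.7%) and rose in 7 (22.6%). Itgax, the CD11c chain, was at 313, 286, 317 and 337 TPM in small intestine libraries and at 4.68, 1.84 and 6.21 TPM in skin libraries (6.01 ± 0.40). Its partner Itgb2 was at 110.1 to 195 TPM in small intestine and at 369.5 to 739.7 TPM in skin (-2.11), a direction opposite to that of Itgax. Itgb7, whose pair with Itga4 binds the gut addressin MAdCAM-1, was at 30.9, 59.0, 122 and 59.2 TPM in small intestine and at 476, 450.1 and 468 TPM in skin (-2.92 ± 0.25), while Itga4 rose by 1.07. Pecam1 (3.50) and Jaml (4.34), which act in passage through endothelium and epithelium, rose, and Itga5, a fibronectin receptor chain, fell by 3.66. Of 20 tested markers listed for activated gut eosinophils 14 rose (70%) and 4 fell. Most known as surface proteins are listed with Ahrr, which is not one and is also counted in the aryl hydrocarbon receptor list. The list was drawn up for gut eosinophils with earlier results of these data known, so its share of rises is in part built in. Cd274 (PD-L1) was at 156 to 252 TPM in small intestine and at 16.2 to 20.5 TPM in skin (3.41), and Cd80 was at 192 to 259 TPM in small intestine and at 47.6 to 55.7 TPM in skin (2.04).

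Of 10 tested granule genes 3 fell (30.0%) and none rose. Their summed level was 16350 to 20300 TPM in small intestine and 15530 to 25480 TPM in skin, nearly all of it Srgn, the proteoglycan of granules, which did not pass (-0.19, limma adjusted p = 0.357). Prg2, major basic protein, was at 74.3, 59.3, 60.03 and 26.6 TPM in small intestine libraries and at 231, 246 and 139 TPM in skin libraries (-1.93 ± 0.44, limma adjusted p = 0.00137), and Prg3 fell by 3.51. Epx, eosinophil peroxidase, was at most 1.7 TPM in all 7 libraries, and the near-identical ribonucleases Ear1 and Ear2 did not pass. In the eosinophil identity list 15 of 27 genes fell (55.6%) and 6 rose. Gata1, which eosinophil development needs, was at 27.1, 29.99, 24.5 and 25.4 TPM in small intestine and at 246, 186 and 99.7 TPM in skin (-2.59 ± 0.23). Fcgr2b, the inhibitory antibody receptor, fell by 2.22. Among 42 transcription factors 19 fell (45.2%) and 7 rose (16.7%). Id2, an inhibitor of helix-loop-helix factors, was at 80.3, 121, 103 and 162 TPM in small intestine and at 2479, 2443 and 1586 TPM in skin (-4.22 ± 0.17, limma adjusted p = 1.59e-15). Id1 (-3.78), Batf3 (-2.95), Bach1 (-2.76) and Stat6 (-0.86) also fell. Runx1, at 78.5 to 92.5 TPM in small intestine and 13.97 to 22.3 TPM in skin, rose by 2.19, and Prdm1 (Blimp-1) by 2.33, a call lost with a pseudocount of 0.1 (adjusted p = 0.057). Spi1 did not pass (0.10, limma adjusted p = 0.775).

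Immediate early genes rose in 17 of 38 cases (44.7%) and fell in 7, with 3 falls without skin library 4, 4 without small intestine library 2 and 4 in the fit to the 2 tissues alone. The nuclear receptors Nr4a1, Nr4a2 and Nr4a3, fast targets of calcium and cAMP signals, rose by 3.77, 3.90 and 3.65. Nr4a3 was at 174, 166, 182 and 174.5 TPM in small intestine libraries and at 9.93, 20.5 and 10.52 TPM in skin libraries. Myc (4.31), Egr2 (4.13) and Atf3 (3.63) rose with them, while Fos was at 421 to 905 TPM in small intestine and 385 to 822 TPM in skin and did not pass (limma adjusted p = 0.999). Socs3, the feedback inhibitor of interleukin 6 signals, fell by 2.98. Of 26 NF-kappaB genes 4 rose (15.4%, against 16.0% of all tested genes) and 7 fell (26.9%, against 16.2%). Rel rose by 1.82 and Nfkb1, at 93.6 to 127 TPM in small intestine and 361 to 451 TPM in skin, fell by 1.93. The immediate early list also holds genes that tissue dissociation can induce, whose part in the result was not tested.

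Eicosanoid genes rose in 9 of 17 cases (52.9%) and fell in 2. Lta4h, which makes leukotriene B4, was at 1076, 1047, 1040.4 and 1234 TPM in small intestine libraries and at 142, 122 and 121 TPM in skin libraries (3.09 ± 0.14, limma adjusted p = 8.76e-15). Alox15, at 1149.9 to 1362 TPM in small intestine and 250.2 to 410.02 TPM in skin, rose by 1.94, and Ggt5 and Dpep2, which process cysteinyl leukotrienes, by 3.33 and 6.89. Alox5ap, the activating protein of 5-lipoxygenase, fell by 1.52, and Ptgs2 did not pass (limma adjusted p = 0.688). Remodelling genes rose in 9 of 22 cases (40.9%) and fell in 7. Plaur, the urokinase receptor, was at 2272 to 3251 TPM in small intestine and at 83.3 to 106 TPM in skin (4.78 ± 0.27). Tgm2, a transglutaminase, was at 3274 to 4343 TPM in small intestine and 519.9 to 1119.6 TPM in skin (2.16), and Smad3 fell by 2.83.

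Antigen presentation genes differed by step. In the class I list 10 of 23 rose (43.5%) and 4 fell. Psmb9, Psmb10 and Psmb8, the immunoproteasome subunits, rose by 2.78, 1.21 and 0.99, and the peptide transporter genes Tap1 and Tap2 by 1.13 and 1.80, the call of Tap1 being lost without skin library 2 (adjusted p = 0.055). H2-D1 and H2-K1, which encode the class I heavy chains, fell by 1.45 and 0.76. H2-D1 was at 1426 to 1687 TPM in small intestine and at 4066 to 4669 TPM in skin. H2 genes are near copies of one another, so reads may be split between them. In the class II list 8 of 15 rose (53.3%), among them the costimulators and ligands of inhibitory receptors Pdcd1lg2 (3.01), Lgals9 (2.18) and Cd86 (1.80). H2-Ab1 was at 192, 221, 238 and 39.99 TPM in small intestine and at 33.0, 42.5 and 3.33 TPM in skin (2.95 ± 0.79, limma adjusted p = 0.00534), so that small intestine library 4 lay within the skin range, and without skin library 4 it did not pass (1.9, adjusted p = 0.079). H2-Aa (1.3, limma adjusted p = 0.291) and Cd74 (0.82, 0.488) did not pass. Interferon-stimulated genes rose in 7 of 37 cases (18.9%), near the background, with Ifitm2 (2.54) at 2474 to 3325 TPM in small intestine and 331 to 679.9 TPM in skin.

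Of 20 tested genes in the list of annexins and S100 proteins 14 fell (70%) and 1 rose, with a median of -1.46. Annexins and S100 proteins are calcium-binding proteins of membrane and cytoskeleton. The list also holds Ahnak (-5.17), which is of neither family. S100a6 was at 29.1, 18.2, 46.9 and 74.8 TPM in small intestine libraries and at 1566, 1195 and 1209 TPM in skin libraries (-5.11 ± 0.31). S100a10 fell by 3.04 and Anxa1, an anti-inflammatory annexin, by 3.71. The level of S100a6 outside the small intestine was 398 to 1021 TPM in the other 5 tissue means. Redox and iron genes rose in 14 of 31 cases (45.2%) and fell in 7. Slc40a1, the iron exporter ferroportin, was at 295 to 546 TPM in small intestine and at 8.88 to 30.4 TPM in skin (4.62 ± 0.40), whereas Slc11a1, an endosomal metal transporter, fell by 2.86. The oxidase subunits Cybb and Ncf1 rose by 2.16 and 2.1, and Gpx1 and Gpx4, which remove peroxides, fell by 1.72 and 1.49.

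Housekeeping complexes moved by small amounts. Of 80 ribosomal protein genes 26 rose (32.5%) and 2 fell, with a median of 0.20, Rpl3 at 0.76 among the rises; the count of rises was 17 without small intestine library 2 and 16 in the fit to the 2 tissues alone. Of 79 oxidative phosphorylation subunits 34 fell (43.0%) and 9 rose, with a median of -0.31. Ndufa10 of complex I was among the rises, at a mean of 138 TPM in small intestine and 32.9 TPM in skin (2.05). Of 38 proteasome subunits 11 fell (28.9%) and 3 rose (7.9%), and those 3 were the immunoproteasome subunits Psmb8, Psmb9 and Psmb10. The count of falls was 7 without skin library 1 and in the fit to the 2 tissues alone. Of 78 mitochondrial ribosomal proteins 11 fell (14.1%, against 16.2% of all tested genes) and 1 rose (1.3%), so the falls were near the background. The count of falls was 7 without small intestine library 2.

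**Figure D5:**
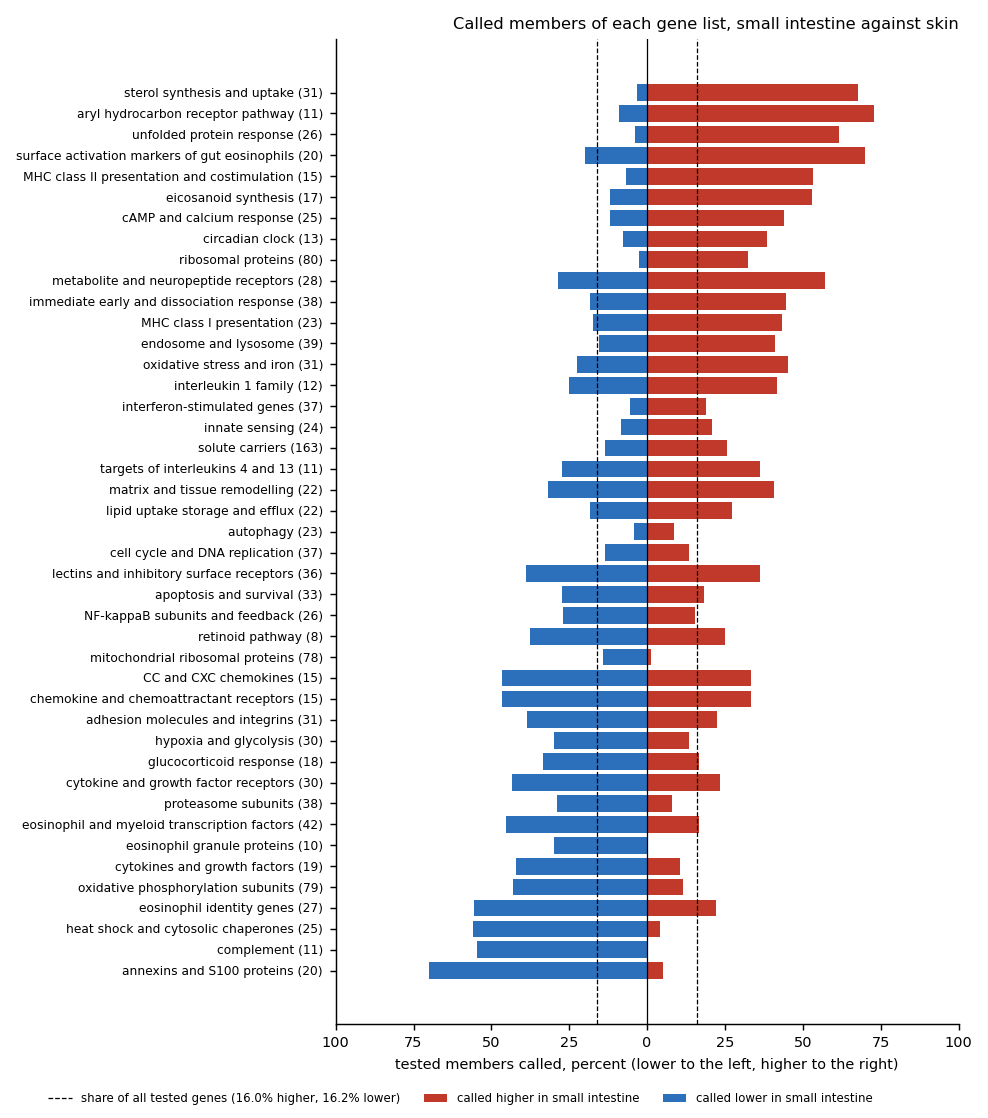
Share of the tested members of each gene list that passed the test, with genes higher in small intestine to the right in red and genes lower in small intestine to the left in blue, in percent; the number tested is in brackets and dashed lines mark the shares over all tested genes (16.0% higher, 16.2% lower). Sterol, aryl hydrocarbon receptor and unfolded protein response genes stand at one end and annexins, complement and cytosolic chaperones at the other.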

How the data were processed

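Eosinophil libraries from 7 mouse tissues were compared, with small intestine set against skin. The deposited values are TPM per gene; per the submitters' processing notes reads were processed with cutadapt 2.10, STAR 2.7.5c and RSEM 1.3.3 on mm10, while their annotation and the reason some genes were removed are not given here. Columns sum to 796047 to 890768 TPM, so some genes are missing, and depth is unknown.

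Of 9844 deposited genes, 9806 with at least 1 TPM in at least 3 of the 24 tissue libraries were tested. A gene present in skin alone needs all 3 skin libraries to pass this filter, and one present in small intestine alone needs 3 of 4. limma 3.58.1 (R 4.3.3) was fitted to log2(TPM + 1) over all 24 libraries with tissue as the factor and a trended variance prior; p-values were adjusted by Benjamini-Hochberg over all tested genes. The fit was tested on simulated data. Counts per library used exact permutation tests (scipy 1.17.1).

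Named genes were the 20 largest rises and the 20 largest falls among called genes with a named model, ribosomal proteins excepted, with non-overlapping groups and at least 10 TPM on average in the tissue with more, then up to 4 called members per list, or 2 by level in a list with no call, and Nmur1. Other list members and the 3 loci were named after their values were seen. The 43 pathway and 14 marker lists and the members were chosen with earlier results of these data known, and the ribosomal and respiratory lists were narrowed after seeing which symbols matched. Gene positions are from GENCODE M21 (9743 symbols, 99.0%, found) and promoters from RefSeq. Same-numbered libraries did not deviate together (r = -0.008, 0.058 and -0.01), and they were not treated as pairs. With so few libraries these values cannot show that they were unpaired. Alternatives were other pseudocounts, filters, scalings and sample sets, and leaving out each library; the 5 TPM threshold for counting genes and the 100 most abundant genes were added after seeing the data. Some genes of the lists are counted in the totals but are not reported here by name.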

Additional observations from a re-analysis of the deposited data

Results flagged for a closer look

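In 28 of the 305 genes checked (9.18%), 1 small intestine library stood apart from the other 3 on the log2(TPM + 1) scale, by its gap to the nearest relative to the range. About 1 in 20 groups of 4 would pass this cut-off if values were independent and normally distributed. Genes that vary together, or that are at 0 in 3 libraries, do not meet this, so the share of flagged genes cannot be read as an excess. Groups of 3, such as skin, were not checked. Class II genes stood apart together in library 4, which was low: H2-Ab1 was at 39.99 TPM there and at 192.1 to 237.82 TPM in the others, H2-Eb1 at 13.67 against 84.82 to 105.46 TPM, H2-Aa at 18.03 against 94.29 to 122.82 TPM, and Cd74 at 45.68 against 192.2 to 227.42 TPM. Library 4 was also low in Pecam1 (131.89 against 160.34 to 162.63 TPM), Perp (0.49 against 3.85 to 4.99 TPM), S1pr4 (0.19 against 3.56 to 4.4 TPM) and Ear2 (0 against 11.96 to 13.97 TPM). It was high in Il13ra1 (30.61 against 15.68 to 17.39 TPM) and Itgb2 (195.32 against 110.11 to 117.39 TPM).

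Library 1 was low in Bcl3 (5.33 against 31.92 to 36.92 TPM), Ccr3 (483.96 against 524.04 to 529.16 TPM) and Il4 (118.84 against 152.19 to 156.29 TPM), and high in Cxcr2 (38.95 against 14.05 to 16.3 TPM). Library 2 was low in Bcl2 (2.36 against 5.01 to 5.7 TPM) and Il1b (3235.75 against 5149.62 to 5478.94 TPM), and high in Nfe2l2 (440.79 against 347.48 to 360.81 TPM). Library 3 was low in Clec4a4 (404.87 against 508.57 to 521.21 TPM), and high in Slc44a2 (121.51 against 86.73 to 90.96 TPM), Tnf (91.12 against 75.66 to 77.3 TPM) and Il1rl2 (2.96 against 0 to 0.25 TPM). In 7 genes 1 library had a low value and the other 3 were at 0. These were Ccl5 (5.89 TPM, library 2), Klrg1 (2.17 TPM, library 4), Slc6a4 (0.99 TPM, library 4), Pdgfrb (0.9 TPM, library 3), Cd300ld3 (0.75 TPM, library 1), Acta1 (0.35 TPM, library 4) and Il27ra (0.17 TPM, library 4).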

How the results depend on the processing

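Over 17 alternatives the number of higher genes was 1312 to 1679 and of lower genes 1241 to 1651, both within 1.5 times the main counts. The fewest came from the fit to the 2 tissues alone (1312 higher, 1241 lower), and leaving out 1 library gave 1354 to 1441 higher and 1357 to 1472 lower. Median-ratio scaling, which moved the median of all genes to 0.031, gave 1679 higher and 1408 lower (54.4% of calls higher, 49.7% in the main test). Whether same-numbered libraries are pairs is not known. With the replicate block there were 1494 higher and 1549 lower, and 2961 of the 3161 calls were kept. Of 284 called genes checked, 246 were called in the same direction under all 17, and none of the 284 changed direction. Genes that did not pass and changed sign were Fos, at 0.08 with median-ratio scaling and 0 with ribosomal genes left out, and 9 more when 1 library was left out. With 1 library left out, log2 changes ranged from -0.37 to 0.19 for Fos, -1.82 to 0.01 for Cxcl1, -1.13 to 0.53 for Ear1, -1.19 to 0.64 for Ear2, -1.44 to 0.95 for Eif2ak3, -0.08 to 0.61 for Il1rl2, -0.22 to 0.24 for Il4ra, -0.11 to 0.57 for Ptgs2, -0.02 to 0.3 for Spi1 and -0.8 to 0.02 for Srebf1. Of the gene lists in the report, lectins (13 higher, 13 lower with median-ratio scaling) and chemoattractant receptors (5 and 5 in the 2 tissues alone) lost their excess of lower genes. Counting genes at 5 TPM or more gave a difference of 42.8 (exact permutation p = 0.543), and the share of the 100 most abundant genes one of -0.695 percentage points (exact permutation p = 0.457). Without depth, no limit of detection can be given.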

Other observations

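Clock genes rose in 5 of 13 cases (38.5%, against 16.0% of all tested genes) and fell in 1. Per1, a repressor of the clock loop that is also induced by glucocorticoids, was at 93.3, 79.2, 79.9 and 66.6 TPM in small intestine libraries and at 3.46, 3.51 and 6.14 TPM in skin libraries (3.94 ± 0.28, limma adjusted p = 3.53e-11). Ciart (3.07), Dbp (2.29), Cry1 (1.75) and Bhlhe40 (1.56) rose, and Nfil3 fell by 1.03. The call of Dbp was lost without skin library 4 (1.16, limma adjusted p = 0.18) and in the fit to the 2 tissues alone (2.29, 0.072). Lysosomal genes rose in 16 of 39 cases (41.0%) and fell in 6. Ctsl, a cathepsin, was at 122 to 160.3 TPM in small intestine and at 3.2 to 18.4 TPM in skin (3.84), and Gm2a, the activator of ganglioside breakdown, rose by 3.07. Ctsd, another cathepsin, was at 225 to 427 TPM in small intestine and at 1010.3 to 2442 TPM in skin (-2.44), and the cathepsin inhibitors Cst3 (-1.66) and Cst7 (-3.91) fell.

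Solute carriers rose in 42 of 163 cases (25.8%) and fell in 22. Slc3a2 and Slc7a11, which together form the cystine importer, were at 1428 to 1956 TPM and 501 to 806 TPM in small intestine and at 145 to 304 TPM and 68.5 to 141 TPM in skin. Their log2 changes were 2.93 and 2.60. Slco4a1, an organic anion transporter that is outside that list, was at 111 to 158 TPM in small intestine and at 1.58 to 3.23 TPM in skin (5.36). Survival genes fell in 9 of 33 cases (27.3%) and rose in 6. Fas, a death receptor, was at 38.5, 146, 69.3 and 107 TPM in small intestine and at 762, 738 and 687 TPM in skin (-3.16), Bid, which carries its signal to mitochondria, fell by 2.90, and Bcl2 rose by 1.96. Genes that favour survival also fell, among them Pim2 (-5.13), Xiap and Bcl2l1. Over 17 alternatives the change was -1.47 to -1.16 for Xiap and -1.68 to -1.13 for Bcl2l1, whose call was lost in 4 of them.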
